A study of Carassius auratus with 4 samples.

Results

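Aldolase was measured by 26 cDNA clones among the 8100 gene clones printed on a goldfish (Carassius auratus) array, 4 of them named as aldolase A, the muscle-type isozyme, and 22 as aldolase C, the brain-type isozyme. The clones were chosen by the name printed for each spot, and each had 2 spots per array, 52 in all. A clone named transaldolase, an enzyme of the pentose phosphate pathway, was left out because it is a different enzyme. The RNA came from dispersed pituitary cells of both sexes. On each of 4 arrays, cells kept for 12 h with 10 nM goldfish secretoneurin, a peptide cut from secretogranin II, were set against control cells, which per the labels were not incubated. So the incubation and the peptide cannot be told apart. The arrays were dye-swapped, with secretoneurin RNA in Cy5 on replicates 1 and 3 and in Cy3 on replicates 2 and 4.

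Fructose-bisphosphate aldolase splits the 6-carbon sugar bisphosphate of glycolysis into a pair of 3-carbon phosphates, which triosephosphate isomerase then interconverts. Vertebrates have 3 isozymes: aldolase A is the main form of muscle and red blood cells and is present in most tissues, aldolase B is that of liver and kidney, and aldolase C is that of brain and other neural tissue. Aldolase works as a homotetramer, and A and C subunits can also form mixed tetramers where a cell makes both. The goldfish lineage doubled its genome, so each isozyme can have several gene copies, and the reference gene table holds goldfish genes named aldoaa, aldoab and aldocb. The array names do not tie a clone to any of these copies, and clones of one isozyme may share hybridisation with the other or with each other.

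The labelled cell type was carried by its hormone genes. Of 13 clones of pituitary hormones and granins, 7 lay above background in both dyes on all 4 arrays, among them growth hormone, the beta subunit of thyrotropin and secretogranin III. Over the whole array 839 of the 8089 probes tested did (10.4%). The clone of the gonadotropin GTH-II was weaker, above background in secretoneurin cells on 2 arrays and in control cells on 1. Over all gene spots, both dyes lay above background on 15.9% to 18.9% per array, where above background means a signal over the local background plus 2 of its SDs. The labels and the file headers gave the same dye orientation for all 4 arrays. Over all gene clones the secretoneurin over control log2 ratios of replicates 2 and 4 nevertheless opposed each other (r = -0.607 across clones), while those of replicates 1 and 3 had r = 0.246. With replicates 1 and 3, replicate 4 had r = -0.105 and -0.255, and replicate 2 had r = -0.00606 and 0.109. The direction of replicates 2 and 4 is therefore not settled by the data. Values follow the labels, and those with the sign of either array turned are given beside the main results. The labels name no separate cultures, and the spread behind each p-value may therefore be only technical.

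The first question was how strongly each isozyme was detected. All 26 clones were brighter on average than the buffer spots, which held no DNA and had a median log2 intensity of 7.86, as were 6778 of the 8100 gene clones. The 4 aldolase A clones had mean log2 intensities from 8.81 to 9.45, between the 80.6th and the 87.0th percentile of all gene clones. The 22 aldolase C clones ran from 7.95 to 10.74 with a median of 8.34, from the 36.9th to the 94.0th percentile. A clone's brightness depends on the length of its insert and the DNA in its spot as well as on its transcript, so these ranges do not rank the isozymes by abundance. They do show that clones of the same isozyme differed widely.

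**Figure D1:**
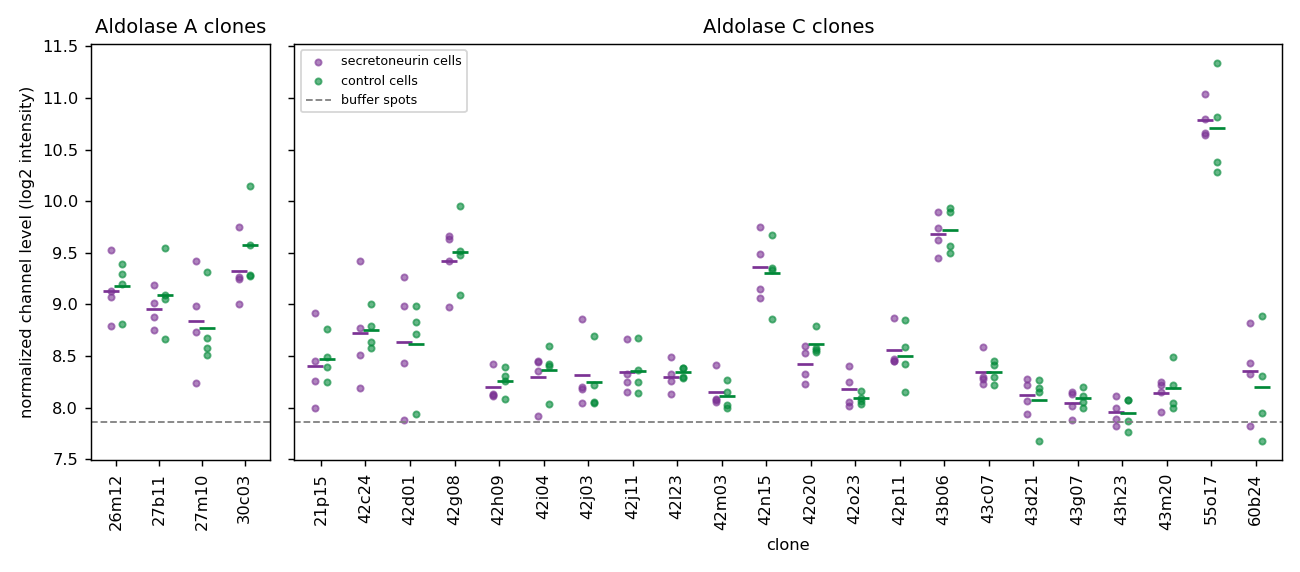
Normalized channel level (log2 intensity, vertical axis) of each aldolase clone (horizontal axis) in secretoneurin and control cells, 1 point per array, with a short bar at the mean of 4 arrays; the dashed line is the buffer spots at 7.86. Aldolase C clone 55o17 stands highest at a mean of 10.74, 17 of the 22 lie between 8 and 9, and the secretoneurin and control points of each clone overlap.

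Clone 55o17, named brain-type aldolase C, was the brightest of the 26. Its background-subtracted signals in secretoneurin cells were 1613, 2402, 1011 and 2469 scanner units on replicates 1 to 4, and in control cells 4071, 1283, 1788 and 1057. The control value was the higher one on replicates 1 and 3 and the lower one on replicates 2 and 4, so before normalization the brighter channel was always Cy3. The dimmest, aldolase C clone 43h23, had 169, 325, 148 and 276 units in secretoneurin cells and 276, 186, 211 and 179 in control cells, with Cy3 again the brighter channel on every array. This was not particular to aldolase. Over all gene spots the median intensity, background included, was 591, 653, 400 and 524 units in Cy3 on replicates 1 to 4. In Cy5 it was 221, 218, 156 and 206.

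Aldolase A clone 30c03 had signals of 628, 802, 366 and 922 units in secretoneurin cells and 1727, 565, 796 and 490 in control cells. It was the brightest A clone. Clone 26m12, also aldolase A, had 354, 920, 325 and 1147 units in secretoneurin cells and 1004, 397, 707 and 490 in control cells. In both clones the secretoneurin and control ranges overlapped. Each group carried the brighter Cy3 on some arrays and Cy5 on the others, so the overlap of these signals does not compare the groups.

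Detection followed the dye more than the sample. Of the 22 aldolase C clones, 17, 18, 20 and 17 were above background in Cy5 on replicates 1 to 4, but 3, 3, 5 and 6 in Cy3. The corresponding counts for the 4 aldolase A clones were 4, 4, 3 and 4 in Cy5 and 3, 2, 2 and 3 in Cy3. Over all 8100 gene clones Cy5 likewise exceeded Cy3, with 3208 to 6053 clones against 1223 to 1506, so the difference between dyes was not particular to aldolase. Clones above background in both dyes on all 4 arrays were 1 of 4 for aldolase A (26m12) and 2 of 22 for aldolase C (43b06 and 55o17), against 839 of the 8089 probes tested over the whole array (10.4%). Clone 60b24 was above background in neither group on any array, and clone 42m03 in secretoneurin cells on none, so the ratios fitted for these clones are not measured folds. Both stay in the isozyme averages and counts, and leaving them out moved the aldolase C mean log2 ratio from -0.0030 to -0.013. Other C clones, named below, never had both dyes above background on the same array. They stay in too, and that check does not cover them. Both dyes were above background for 3, 3, 5 and 6 of the 22 C clones on replicates 1 to 4. The shares were 13.6%, 13.6%, 22.7% and 27.3%, beside 18.3%, 16.6%, 17.2% and 15% of all gene clones.

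The main comparison asked whether aldolase transcripts differed after 12 h with secretoneurin. No aldolase clone passed the test. Of the 26 clones, 0 were called in limma after Benjamini-Hochberg adjustment over all 8089 probes (adjusted p = 0.998 for each), where 0 probes in all were called (0%). At an unadjusted p under 0.05 there were 2 of 26 (7.69%), 1 of each isozyme, against 223 of 8089 probes (2.76%). The unmoderated form of the same test also called 0 aldolase clones. In these bulk samples, fewer cells that express a gene and less of its RNA per cell cannot be told apart.

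Among the aldolase A clones, 3 of 4 had fitted log2 ratios below 0 and 1 above, where 49.4% of all probes were below 0, with a median of -0.087 beside 0.0014 over all probes tested. Clone 30c03 had log2 ratios of secretoneurin over control of -0.39, -0.28, -0.33 and -0.0042 on replicates 1 to 4. With the labelled directions it was the only one of the 26 clones below 0 on all 4 arrays, and on replicate 4 it stood close to 0. The fitted value was -0.25 ± 0.071 (SE, 4 arrays; limma unadjusted p = 0.0227). On replicate 2 its secretoneurin signal was not above background. Its 2 spots differed on the arrays with secretoneurin in Cy3: they read 0.029 and -0.58 on replicate 2 and 0.18 and -0.18 on replicate 4. On replicates 1 and 3 both spots were below 0. With the sign of replicate 2 turned its fitted value was -0.11, and with that of replicate 4 turned -0.25. It then had values on both sides of 0 in either case.

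Clone 27b11 had ratios of -0.36, 0.21, -0.34 and -0.038, and a fitted value of -0.13 ± 0.067. The value of 27b11 was -0.24 with replicate 2 turned, when it was below 0 on all 4 arrays, and -0.11 with replicate 4 turned. Clone 26m12, the A clone measured in both dyes throughout, had ratios of -0.51, 0.32, -0.32 and 0.33. These were below 0 where secretoneurin carried Cy5 and above 0 where it carried Cy3, and the fitted secretoneurin value was -0.046 ± 0.060. Turning replicate 2 or 4 gave -0.21 in either case for 26m12. Clone 27m10 had the opposite signs to 26m12 on replicates 1 to 3, with ratios of 0.41, -0.44, 0.22 and 0.10 and a fitted value of 0.071 ± 0.11. Turning replicate 2 gave 0.29 for 27m10 and turning replicate 4 gave 0.020. It was above background in secretoneurin cells on 1 array and in control cells on 2, never both on the same array. None of these turned values passed the adjusted test in limma (smallest adjusted p of the 26 clones, 0.106). The 4 A clones thus disagreed by more than their standard errors, with an SD of 0.14 between their fitted values.

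**Figure D2:**
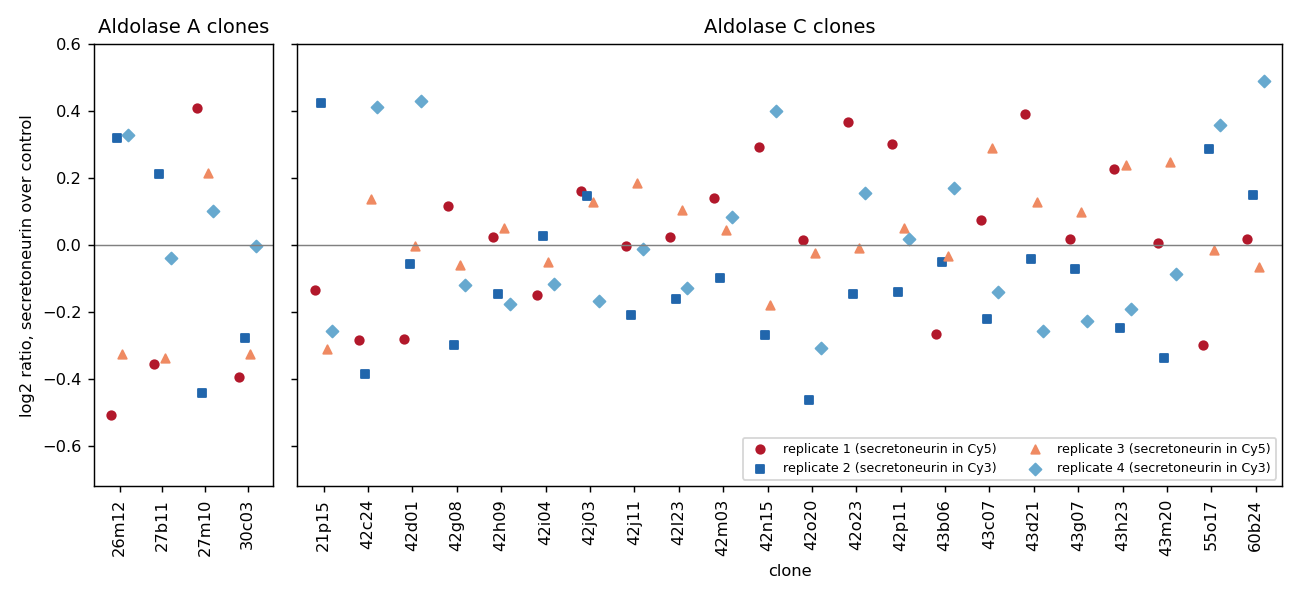
Log2 ratio of secretoneurin over control (vertical axis) for each aldolase clone (horizontal axis), 1 symbol per array, with warm colours where secretoneurin carried Cy5 and blue ones where it carried Cy3. Clone 30c03 is at or below 0 on all 4 arrays, clone 26m12 splits by dye between -0.51 and 0.33, and most aldolase C clones have points on both sides of 0; clones 42m03 and 60b24 are shown although they were not above background in at least 1 group.

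With the labelled directions, 11 of the 22 aldolase C clones had fitted log2 ratios below 0 and 11 above, with a median of -0.0045 and an SD of 0.076 between clones. With replicate 2 turned 6 were below 0 and 16 above (51.4% of all probes below 0), with a median of 0.066, and with replicate 4 turned 10 were below and 12 above (50.8% of all probes below 0). As labelled, 0 of the 22 had 1 direction on all 4 arrays, where 10.7% of all clones measured on all 4 did (852 of 7953). With replicate 2 turned 4 did (21p15, 42i04, 42m03 and 42p11), where 13.1% of all clones did, and with replicate 4 turned 3 did (42d01, 42j03 and 43b06), where 16.1% did. The median 95% confidence interval of an aldolase C clone reached 0.20 to either side of its fitted value, so smaller differences were not resolved. The interval sets no bound on a true difference, because the spread behind it may be only technical. Only 2 of the 22 C clones were also above background in both dyes on all 4 arrays.

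As labelled, clone 42o20 had the lowest fitted value among the C clones, -0.19 ± 0.059 (SE, 4 arrays; limma unadjusted p = 0.0277). Its ratios were 0.016, -0.46, -0.024 and -0.31 on replicates 1 to 4, so the distance from 0 came from the arrays with secretoneurin in Cy3. Only on replicate 1 were both of its dyes above background, and on replicates 2 and 4 its secretoneurin signal was not. Both of its spots were below 0 on replicates 2 and 4, at -0.50 and -0.42 on replicate 2 and at -0.32 and -0.29 on replicate 4. Those are the arrays that opposed each other over all clones: with the sign of replicate 2 turned the fitted value of 42o20 was 0.037, and with that of replicate 4 turned -0.041. The next lowest C clone, 42g08, stood at -0.091 ± 0.067. Clone 42i04 followed at -0.073 ± 0.060. This order did not hold with an array turned: clone 21p15 was lowest at -0.28 with replicate 2 turned (limma unadjusted p = 0.00562), and clone 42c24 at -0.24 with replicate 4 turned (limma unadjusted p = 0.0261). As labelled, clone 42o23 was highest among the C clones above background on at least 1 array in each group, at 0.091 ± 0.098. It turned to -0.0057 in the authors' deposited table. Its secretoneurin signal was above background on replicate 3 only and its control signal on replicate 2 only. No array thus had both, and its ratio is not a measured fold either. The same held for C clones 21p15, 42h09, 42i04, 42j03, 42j11, 42l23, 42p11, 43c07, 43d21, 43g07, 43h23 and 43m20, and for A clone 27m10. Clone 42n15 was highest with replicate 2 turned, at 0.20, and clone 43d21 with replicate 4 turned, at 0.18. Clone 55o17, the brightest, had ratios of -0.30, 0.29, -0.014 and 0.36 and a fitted value of 0.083 ± 0.072. Its ratios on replicates 2 and 4 were high and those on replicates 1 and 3 low.

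**Figure D3:**
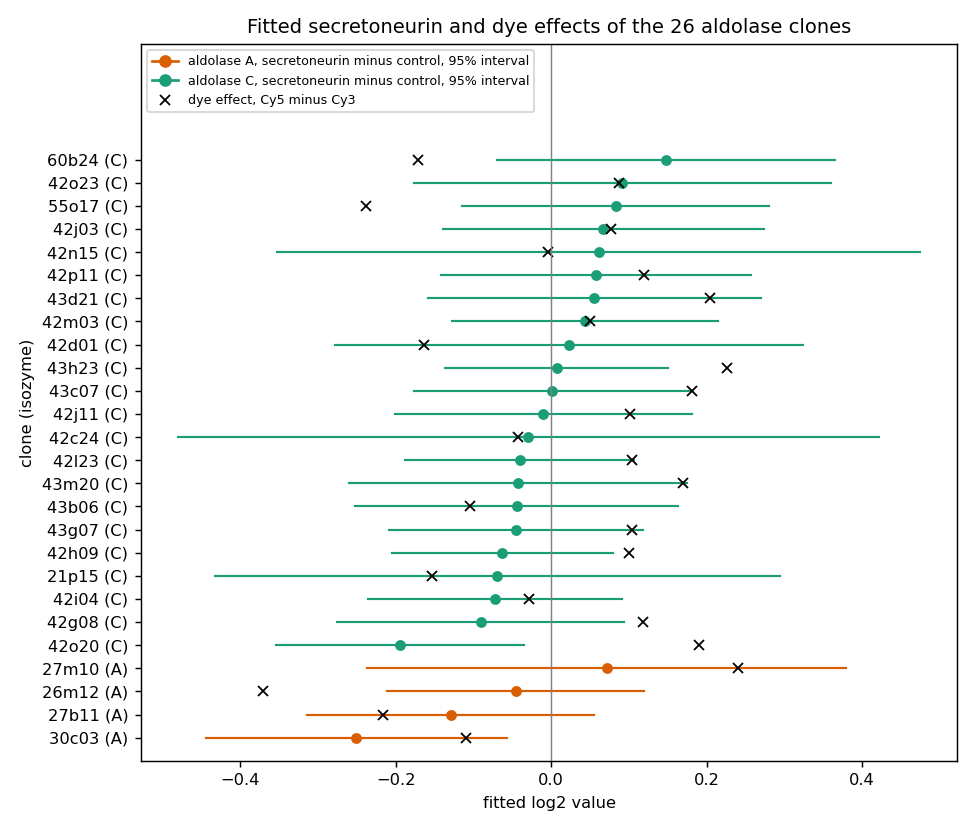
Fitted log2 secretoneurin effect of each clone (horizontal axis) with its 95% confidence interval from limma (lines), and the fitted dye effect of the same clone (crosses), for the 26 clones (vertical axis). The intervals of 30c03 and 42o20 leave out 0 before adjustment, and with the labelled directions the dye effect is larger in size than the secretoneurin effect in 21 of 26 clones, where 56.1% of all probes have this.

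Averaged over clones, aldolase A had log2 ratios of -0.21, -0.047, -0.19 and 0.097 on replicates 1 to 4, a mean of -0.089 ± 0.14 (SD, 4 arrays). Aldolase C had 0.035, -0.11, 0.043 and 0.015, a mean of -0.0030 ± 0.069 (SD, 4 arrays). Aldolase A minus aldolase C was -0.25, 0.058, -0.24 and 0.082, a mean of -0.086 ± 0.18 (SD, 4 arrays). The difference was below 0 on both arrays with secretoneurin in Cy5 and above 0 on both with secretoneurin in Cy3, so its direction was not the same on all arrays. With the sign of replicate 2 turned the means were -0.065 for aldolase A and 0.050 for aldolase C, a difference of -0.12, and with that of replicate 4 turned they were -0.14 and -0.011, a difference of -0.13. Arrays of the same dye orientation were close together, with an SD of 0.013 left after the dye effect was taken out. Within an array the clones of an isozyme spread far more than that, with an SD of 0.17 to 0.42 for aldolase A and 0.14 to 0.26 for aldolase C. No p-value is given for these averages, because clones of a gene are not replicates and were chosen with results known.

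**Figure D4:**
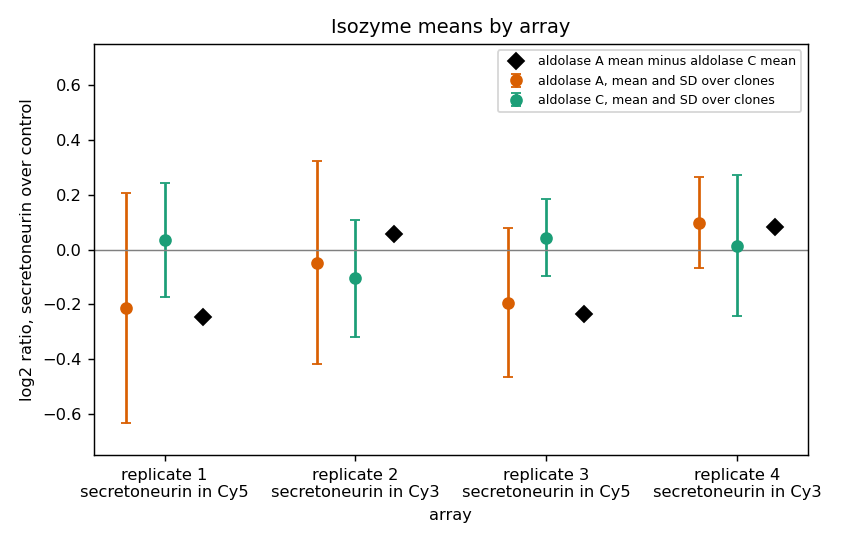
Mean log2 ratio of secretoneurin over control (vertical axis) of the 4 aldolase A clones and the 22 aldolase C clones on each array (horizontal axis), with bars of 1 SD over clones, and the difference between the means as diamonds. The difference is -0.25 and -0.24 where secretoneurin carried Cy5 and 0.058 and 0.082 where it carried Cy3.

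The aldolase A mean rested on few clones. Without clone 30c03 it was -0.035, and the difference from aldolase C was -0.032 in place of -0.086. Without clone 27m10, the 1 clone with a fitted value above 0, the mean was -0.14 and the difference -0.14. 

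The spots of a clone gave a measure of technical spread. The median absolute difference between the 2 spots was 0.24 on the log2 scale for aldolase A (16 pairs) and 0.21 for aldolase C (79 pairs), beside 0.19 over all gene clones (30731 pairs). For aldolase C the spot SD of 0.21 leaves an SD of 0.145 for the mean of 2 spots. The spread between the 22 clones on an array was 0.14 on replicate 3 and 0.21, 0.21 and 0.26 on replicates 1, 2 and 4. It was thus no larger than the 0.145 on replicate 3 and larger on the others. The 0.145 pools the arrays, whose aldolase C spot SDs were 0.18, 0.23, 0.24 and 0.17 on replicates 1 to 4, highest on replicate 3. Of the 176 aldolase C spot values, 9 were marked to be ignored by the scanner software and left out, and of the 32 aldolase A values 0 were.

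The dye effect, the part of a ratio that stayed with Cy5 whichever RNA it labelled, was tested in the same model. No aldolase clone was called (smallest adjusted p = 0.715 in limma, with 0% of all probes called in either direction). At an unadjusted limma p under 0.05 there were 6 of 26 clones in either direction, against 538 of 8089 probes. Clones 26m12, 27b11 and 55o17 were lower in Cy5, and clones 42o20, 43c07 and 43h23 were higher. Of all probes, 3.34% were higher and 3.31% lower in Cy5 at that threshold. For aldolase A the fitted dye effects (log2, Cy5 minus Cy3) were -0.37 for 26m12, -0.22 for 27b11, -0.11 for 30c03 and 0.24 for 27m10. For aldolase C they ran from -0.24 to 0.23 with a median of 0.093, and 14 of 22 were above 0, where 48.6% of all probes were. The mean aldolase C dye effect was 0.042 as labelled, -0.011 with replicate 2 turned and 0.050 with replicate 4 turned, so its sign depends on replicate 2. By the design, these turned dye values are the aldolase C secretoneurin means with the other array turned, and no separate results.

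The dye direction of single C clones was examined with the labelled orientations. Of the 22, 7 were relatively brighter in Cy5 on all 4 arrays (42h09, 42l23, 43c07, 43d21, 43g07, 43h23 and 43m20), where 9.02% of all clones measured on all 4 arrays were. None of these 7 was above background in Cy3 on any array. Clone 55o17 was relatively brighter in Cy3 on all 4, as was aldolase A clone 26m12, a pattern held by 9% of all clones. Both of these clones were above background in both dyes on all 4 arrays. The ratios of clone 43h23 show the Cy5 pattern: 0.23, -0.25, 0.24 and -0.19 of secretoneurin over control on replicates 1 to 4. Its fitted secretoneurin value was 0.0069 ± 0.052 and its fitted dye value 0.23. On each array its ratio pointed to the RNA labelled with Cy5.

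The clones also differed by where they came from. Clone names begin with a number that reads as a source plate, and 19 of the 22 aldolase C clones came from plates 42 and 43, whereas the other 3 C clones (21p15, 55o17 and 60b24) and all 4 A clones came from other plates. Of the 19, 14 had dye effects above 0, with a median of 0.10, and of all clones of the same plates 76.5% on plate 42 and 69% on plate 43 did. The 3 others had dye effects of -0.15, -0.24 and -0.17, and 3 of the 4 A clones were below 0 too. Over all clones of a plate the median dye effect was 0.087 on plate 42 and 0.059 on plate 43, and from -0.043 to 0.017 on the other plates that held an aldolase clone. No plate held clones of both isozymes, so plate and isozyme cannot be told apart.

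With the labelled directions, the aldolase A mean log2 ratio was below that of the 3 aldolase C clones of other plates on all 4 arrays. The differences were -0.074, -0.33, -0.063 and -0.099 on replicates 1 to 4. Set against the 19 C clones of plates 42 and 43, the differences were -0.27, 0.12, -0.26 and 0.11. As labelled, the change of sign with the dye was thus present against the larger set and absent against the smaller. With the sign of replicate 2 or of replicate 4 turned, the difference from the smaller set was above 0 on the turned array. This split was chosen after the values were seen. Its smaller set includes clone 60b24, which was not above background in either group. Clone 21p15 of the same set never had both dyes above background on the same array. The split is a description with no test.

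Markers of the tissues that the isozymes are named for were examined beside them. The 107 tested of 108 muscle marker clones (myosins, troponins, parvalbumins and others) had a median fitted log2 ratio of 0.0019, and array medians of -0.060, 0.079, 0.017 and -0.038. Their mean level ranged over arrays from 8.56 to 8.63 in secretoneurin cells and from 8.46 to 8.69 in control cells (log2 intensity), and 16 of 108 were above background in no channel on any array. The 88 neural and glial clones (ependymins, myelin proteins, brain creatine kinase and others) had a median of 0.011, with mean levels of 8.11 to 8.18 and 8.11 to 8.14, and 14 were above background nowhere. For red blood cells, which also use aldolase A, 12 globin clones had a median of 0.068 and 5 were above background nowhere. The 13 clones of pituitary hormones and granins had a median of -0.050 as labelled, with 11 below 0 and 2 above (49.4% of all probes below 0). Their array medians were 0.066, -0.15, 0.11 and -0.11 on replicates 1 to 4. These were above 0 with secretoneurin in Cy5 and below 0 with it in Cy3, and the median dye effect was 0.16. In limma 0 clones of these lists were called. An unadjusted limma p under 0.05 was reached by 3 muscle, 5 neural, 0 globin and 1 pituitary clones, against 223 of 8089 probes (2.76%). Above background in both dyes on all 4 arrays were 13 muscle, 1 neural and 0 globin clones, where 10.4% of all probes tested were. The share of all gene clones above background nowhere is not given here. The part of these markers in the aldolase values was not tested.

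The other enzymes of glycolysis gave 55 clones. As labelled, 32 had fitted log2 ratios below 0 and 23 above, where 49.4% of all probes were below 0. Their median was -0.020. In limma 0 of them were called and 0 had an unadjusted p under 0.05, where 2.76% of all probes did. In pathway order, the medians were -0.030 for 4 clones of hexokinase, which phosphorylates glucose, -0.018 for 4 of glucose-6-phosphate isomerase and 0.013 for 5 of phosphofructokinase, the step before aldolase. Just after aldolase, triosephosphate isomerase had a median of -0.018 (4 clones) and GAPDH, the oxidising step, one of -0.055 (15 clones). The lower steps had medians of -0.022 for phosphoglycerate kinase (2 clones), 0.016 for phosphoglycerate mutase (2 clones), 0.011 for enolase (7 clones) and 0.091 for pyruvate kinase (5 clones). Lactate dehydrogenase, which regenerates NAD+, stood at -0.045 (7 clones). The aldolase A median was below that of each other enzyme, at -0.087 as labelled, -0.16 with replicate 2 turned and -0.16 with replicate 4 turned, beside lowest other medians of -0.055, -0.063 and -0.068. As labelled, its 4 clones ran from -0.25 to 0.071, within the range of -0.28 to 0.15 of the 55 other clones.

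**Figure D5:**
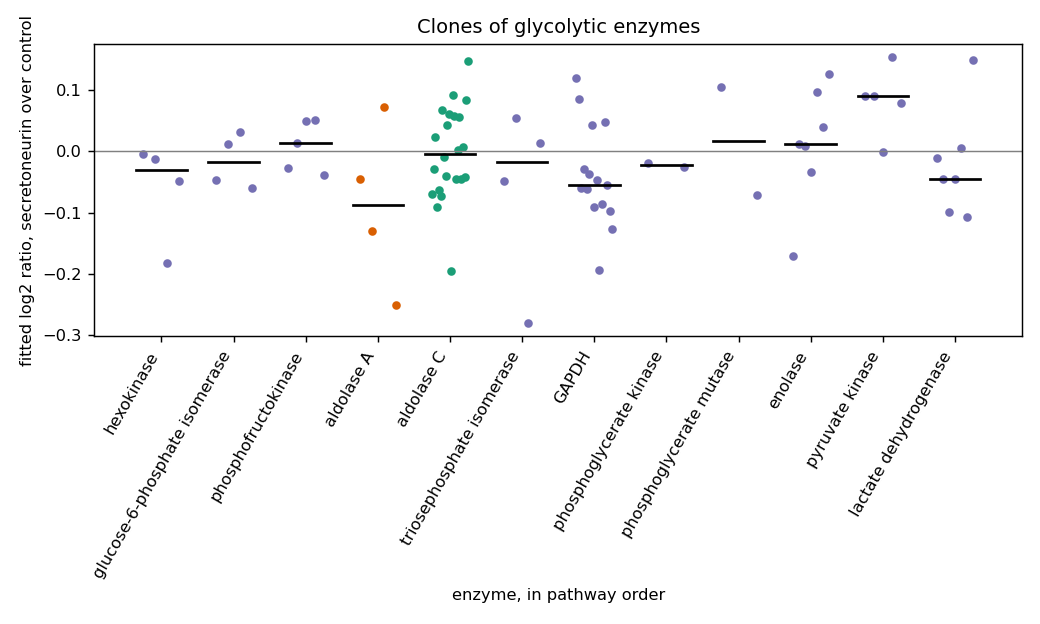
Fitted log2 ratio of secretoneurin over control (vertical axis) of every clone of the glycolytic enzymes, in pathway order (horizontal axis), with a bar at each median. The aldolase A median is -0.087 and the aldolase C median -0.0045, and the clones of each enzyme lie on both sides of 0 except those of hexokinase and phosphoglycerate kinase, all below it.

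The genes whose 4 ratios lay nearest to an isozyme's mean were found among 299 named probes above background in both dyes on all arrays. Nearest to aldolase A was negative elongation factor E, which pauses RNA polymerase II, with ratios of -0.26, -0.092, -0.20 and 0.096 and a root mean square difference of 0.034. Ribosomal protein L18a followed at 0.034 and cysteine-rich protein 2, a LIM protein, at 0.049. Nearest to aldolase C were the RNA-binding protein hnRNP G at 0.040, a probe of MHC class I at 0.043 and a probe of GAPDH at 0.055. The measure covers 4 arrays, so these are descriptions of likeness only.

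The count over all probes depended on single arrays. Without replicate 2 limma called 4.35% of all probes and without replicate 4 it called 5.46%, and of the 26 aldolase clones it called 0 in both cases, a count too small to set apart from those shares. Without replicate 4 the value of 30c03 was -0.32. That fit has only replicate 2 with secretoneurin in Cy3 and assumes that it varies like the others. The secretoneurin signal of 30c03 was not above background on replicate 2. Across the 4 fits that left out an array, the value of 30c03 ran from -0.32 to -0.18 and that of 42o20 from -0.23 to -0.16.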

How the data were processed

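Each array's scanner table lists spots in 2 channels. Per the file headers, its intensities are linear and neither background nor crosstalk was corrected in them. A table of log2 ratios that the authors deposited was used as an alternative only; how it was made is not given in the labels or headers. Against the scanner values it read as Cy5 over Cy3 (r = 0.826 to 0.87 per array), with array medians of 0.0037, 0.031, 0.0037 and -0.046, and its normalization stayed unknown.

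With limma 3.58.1 (R 4.3.3), normexp (offset 50) corrected the background and loess with a span of 0.3 and 4 iterations normalized each array, with control, empty and ignored spots given no weight. Levels were then scaled by Aquantile. Both spots of each clone were averaged; a probe needed values on at least 3 arrays, which left 8089. The two-sided test (lmFit, eBayes) modelled secretoneurin together with a dye term for each probe, with Benjamini-Hochberg adjustment over all probes and a threshold of 0.05. It was tested on simulated data. The number of arrays limits the precision.

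All 26 aldolase clones are named, and for each isozyme the 3 gene names nearest by root mean square difference over the 4 arrays. Members and lists (glycolysis and markers of pituitary, muscle, neural and red blood cells) were chosen with earlier results of these data known. Alternatives covered background, normalization, ignored spots, the deposited table, the dye effect, moderation, dim probes, the average over clones and each array left out. The signs of replicates 2 and 4, the plate centring and the left-out clones were added after the data were seen.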

Additional observations from a re-analysis of the deposited data

Results flagged for a closer look

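Aldolase C clone 42j03 had a log2 ratio of -0.168 on replicate 4, far from its other 3 arrays, which lay between 0.128 and 0.161. It was 1 of 29 sets of 4 values examined for a stray array (the 26 clones, the 2 isozyme means and their difference), and chance flags about 1 in 20 such sets. The clone was above background in secretoneurin cells on 2 arrays and in control cells on 2, never both on the same array. With the sign of replicate 4 turned it lay above 0 on all 4 arrays, with a fitted value of 0.151. The flag therefore rests on the labelled direction of that array.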

How the results depend on the processing

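Aldolase A minus aldolase C kept its direction, below 0, in all 21 alternatives, from -0.14 to -0.032, as did the aldolase A mean log2 ratio in 20, from -0.15 to -0.035. The alternative without a dye effect gives the main values by design (-0.0856 and -0.0886), so it is no separate check. The aldolase C mean log2 ratio lay on both sides of 0, from -0.033 to 0.050 over 17. A value counted as moved when it shifted by more than the SD between arrays left after the dye effect was taken out. For aldolase A minus aldolase C that SD was 0.013, far below its SD of 0.18 over the 4 arrays. Aldolase A minus aldolase C moved to -0.040 with no background correction and to -0.124 with median centring. With only probes above background on all 4 arrays it was -0.065. With the sign of replicate 2 turned it was -0.115, and with that of replicate 4 turned -0.127. Without clones 26m12, 27b11, 27m10 and 30c03 in turn it was -0.0999, -0.072, -0.139 and -0.0316. The aldolase A mean dye effect moved to -0.23 with median centring, -0.37 among probes above background on all 4 arrays (1 clone), -0.0284 without clone 26m12 and -0.232 without 27m10. The aldolase C mean dye effect moved to -0.0202 with median centring, -0.171 among probes above background (2 clones) and -0.0218 with plate centring, and stood at -0.0105 with replicate 2 turned. Plate centring left aldolase A minus aldolase C at -0.0845, but the plates' median secretoneurin ratios were near 0, so it does not test the plate's part. Leaving out 1 array gave -0.092 to -0.080 for aldolase A minus aldolase C, -0.125 to -0.0525 for aldolase A and -0.033 to 0.0271 for aldolase C, and dye effects of -0.15 to -0.0777 and 0.012 to 0.072. Each of these fits averages both dye orientations, between which aldolase A minus aldolase C changed sign. Arrays of the same orientation were close together, so the narrow range of this difference does not test its direction. Over all probes, leaving out 1 array gave 0 to 437 secretoneurin calls in limma (346 without replicate 2, 437 without replicate 4) and 0 to 434 dye calls (434 and 322). The number of secretoneurin calls was 285 with the sign of replicate 2 turned and 428 with that of replicate 4, and of dye calls 428 and 285. By the design, the dye term with 1 of these arrays turned is the secretoneurin term with the other turned. The turned dye values and calls are therefore no separate results. No aldolase clone was called in any alternative. With replicate 2 or replicate 4 turned, 0 of 4 aldolase A and 9 of 22 aldolase C clones changed sign in each case. Otherwise 8 of 26 clones kept their sign, all below 0, and 18 changed it somewhere. Clone 26m12, 1 of the 8, kept it only in name, at -2.16e-05 without replicate 1. The share of all probes that kept their sign is not given here, so the count is only a description. The sign changed with no background correction for 42c24 (0.0571), 42m03 (-0.0247) and 43c07 (-0.0224), with print-tip loess for 43g07 (0.00667), 43h23 (-0.00537) and 60b24 (-0.00111), with median centring for 42d01 (-0.0187), 43c07 (-0.00475) and 55o17 (-0.0191), and in the authors' deposited table for 42o23 (-0.00568), 43h23 (-0.0868) and 43m20 (0.0235). Leaving out 1 array at a time spanned 0 for 15 clones: 27m10 from -0.065 to 0.207, 21p15 from -0.24 to 0.101, 42c24 from -0.229 to 0.17, 42d01 from -0.0986 to 0.144, 42j03 from -0.0117 to 0.146, 42j11 from -0.0594 to 0.0391, 42m03 from -0.00199 to 0.0889, 42n15 from -0.107 to 0.229, 42o23 from -0.00233 to 0.185, 42p11 from -0.00541 to 0.12, 43b06 from -0.103 to 0.0139, 43c07 from -0.0523 to 0.0546, 43d21 from -0.0104 to 0.121, 43h23 from -0.00699 to 0.0207 and 43m20 from -0.106 to 0.0203. The cause of these changes was not tested. Low signal limits most clones, of which 3 of 26 were above background in both dyes on all 4 arrays. Each ratio already pairs both groups within 1 array. The test used this pairing, and no further replicate block remains to be fitted.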
